A study of Mus musculus with 10 samples.

Results

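Polycomb repressive complex 2 (PRC2) and the enzymes that remove its mark were followed through single-cell RNA sequencing of mouse intestinal organoids and colonic crypts. The genes described are Ezh1 and Ezh2 (the catalytic subunits), Eed, Suz12 and Rbbp7 (core subunits), Jarid2, Mtf2 and Phf19 (accessory subunits), and Kdm6a and Kdm6b (the H3K27 demethylases). They were chosen by name as subunits and antagonists of PRC2, with earlier results of these data known. They are 10 of the 31053 genes in the count table. One compound in the regenerative medium, EPZ6438, inhibits EZH2, so the question was how transcripts of the complex and of its opposing enzymes stood in cells grown with and without it.

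PRC2 places methyl groups on a lysine of the histone H3 tail, the H3K27 mark of silent genes. In the complex EZH2 or its relative EZH1 transfers the methyl group, EED binds the mark and SUZ12 holds the complex together. JARID2 on one side, and the Polycomb-like proteins MTF2 and PHF19 on the other, guide it to unmethylated CpG-rich promoters. KDM6A (UTX) and KDM6B (JMJD3) remove the mark, and KDM6A is also a subunit of COMPASS-type complexes that methylate H3K4, a mark of active genes. EZH2 is known as the form of dividing cells and EZH1 as the form that persists in resting, differentiated cells, and in the intestine PRC2 is known for keeping crypt cells proliferating and developmental genes silent.

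The ENR-organoids (3 libraries) were grown with EGF, Noggin and R-Spondin 1 and were at passages 2, 7 and 3. The Hyper-organoids (3 libraries, passages 1, 6 and 3) were grown with EGF, R-Spondin 1, FGF2, LDN193189, GSK-3 Inhibitor XV, Pexmetinib, valproic acid (VPA, which inhibits histone deacetylases) and EPZ6438. The -VE-organoids (2 libraries, passages 1 and 6) had the Hyper medium without VPA and EPZ6438, so that the 2 compounds were never varied alone and their parts cannot be told apart. In the labels the library codes begin with 2 for replicate 1 of each medium, with 6 for replicate 2 and with C for replicate 3. This prefix is called the culture series here, and the labels do not say what it stands for. Passage or origin also differs between the 3 prefixes. In series 2 and 6 ENR-organoids were the source of the other cultures, while in series C both media received primary crypts of the small intestine. Series C had no -VE library, so comparisons of -VE-organoids with the other media are not balanced over the series. One library of colonic crypts from normal mice and 1 from mice treated with DSS, which injures the colonic epithelium, completed the series. The labels give no strain, sex or age, and do not state that the libraries of a medium came from separate animals, so a p-value here measures the spread between these libraries.

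The authors kept 1983 to 4293 cells and 89124015 to 170019527 UMIs (unique molecular identifiers, 1 per captured transcript) per organoid library, and 1132 normal and 1933 DSS colonic cells with 19906845 and 32397122 UMIs. No pair of libraries shared more than 5 cell barcodes, and doublets were not removed. The summed level of 6 epithelial markers was 4264 to 5115 CPM (UMIs scaled to a common library total) in the organoid libraries, against 0.978 to 2.03 CPM for 10 leukocyte genes. Cell classes are the authors' annotation. Each class had the highest level of its own marker list in every library with at least 20 of its cells, except that the stem class did so in 5 of 8. The lists follow the markers by which the study named its clusters, so this is no independent check of the classes. In all 3 Hyper libraries the summed Lgr5, Ascl2, Olfm4 and Cd44 level was higher in the transit-amplifying (TA) class than in the stem class, so the stem class of Hyper-organoids is defined here by the annotation and not by those genes.

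The promoters of 3 subunits are printed because they hold one of the DNA words read as a classical E2F site, and E2F factors are known for driving genes of the cell cycle. The words searched were TTTCCCGC, TTTGGCGC, TTTCGCGC and TTTGCCGC on both strands, in the 300 bases from 250 before to 50 after each RefSeq start (GRCm38.p6). Of the 10 genes, 9 matched an entry, and 3 of these 9 (33.3%) held a word, against 704 of all 27025 gene symbols (2.605%, a word at any of a gene's starts) and 6 of the 19 cycle genes with an entry (31.6%). Ezh2 (chr6:47594981-47595280, minus strand) held TTTGGCGC 3 bases after its start. Suz12 (chr11:79992856-79993155, plus strand) held TTTCCCGC 219 bases before it, and Phf19 (chr2:34913927-34914226, minus strand) held the same word on the opposite strand 208 bases before it. Eed (chr7:89980927-89981226, minus strand) is shown beside them as a core subunit without any of the 4 words. The capitals mark the word, each sequence runs 5′ to 3′ along its gene, and a match is a description of the letters only.
Ezh2: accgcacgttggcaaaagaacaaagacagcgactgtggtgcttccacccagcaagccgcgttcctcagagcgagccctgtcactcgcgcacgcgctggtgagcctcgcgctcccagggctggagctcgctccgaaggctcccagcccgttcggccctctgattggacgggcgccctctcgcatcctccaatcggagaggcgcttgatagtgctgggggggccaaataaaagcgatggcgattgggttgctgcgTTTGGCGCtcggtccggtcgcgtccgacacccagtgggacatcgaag
Suz12: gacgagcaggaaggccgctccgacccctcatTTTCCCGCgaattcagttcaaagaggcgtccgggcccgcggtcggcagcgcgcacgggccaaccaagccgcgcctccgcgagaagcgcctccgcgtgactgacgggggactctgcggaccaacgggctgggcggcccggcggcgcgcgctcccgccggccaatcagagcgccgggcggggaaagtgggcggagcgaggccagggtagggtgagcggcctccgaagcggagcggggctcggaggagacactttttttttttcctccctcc
Phf19: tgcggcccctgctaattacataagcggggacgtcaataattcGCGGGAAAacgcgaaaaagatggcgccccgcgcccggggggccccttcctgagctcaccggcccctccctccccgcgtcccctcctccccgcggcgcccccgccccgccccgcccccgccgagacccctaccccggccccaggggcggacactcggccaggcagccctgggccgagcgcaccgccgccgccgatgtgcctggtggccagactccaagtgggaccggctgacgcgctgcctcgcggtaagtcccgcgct
Eed: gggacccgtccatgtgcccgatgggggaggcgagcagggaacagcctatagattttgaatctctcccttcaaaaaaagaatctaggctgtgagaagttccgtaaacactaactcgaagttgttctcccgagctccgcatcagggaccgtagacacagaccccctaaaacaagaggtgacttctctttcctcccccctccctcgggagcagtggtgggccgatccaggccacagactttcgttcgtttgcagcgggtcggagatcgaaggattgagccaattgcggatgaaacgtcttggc

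In the stem class the 3 genes at the heart of PRC2 were lower in Hyper- than in ENR-organoids, and the demethylase gene Kdm6b was higher. Ezh2, Eed and Suz12 each stood at 0.771 to 0.792 of their ENR level, and Kdm6b at 1.25 times its level. Together they are 4 of the 10 genes at an adjusted p under 0.05, where 49.5% of the 13920 genes tested in this class were called, so the count is not above the background. Without overlap between the groups were the same 4, where 58.2% of all genes were. None of the 10 was both called and at least 2-fold apart, where 18.0% of all genes were. The authors assembled this class from cell clusters that differed between Hyper- and ENR-organoids, and the deposited annotation gives the class but no cluster, so that the medium and the cluster cannot be told apart within it.

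Ezh2 (ENSMUSG00000029687, chr6:47530139-47595341, minus strand, mm10) encodes the main methyltransferase. It was at 104, 103 and 105 CPM in ENR replicates 1 to 3, at 104 and 105 CPM in the -VE libraries and at 88.0, 72.04 and 80.8 CPM in Hyper replicates 1 to 3. All 3 Hyper libraries were below all 5 others, whose values lay within a few CPM of one another. The mean was 80.3 ± 8.00 CPM (SD, n = 3) in Hyper and 104 ± 1.20 CPM (SD, n = 3) in ENR libraries. Ezh2 fell by 0.37 on the log2 scale against ENR (SE 0.075, edgeR adjusted p = 0.00281). Eed (chr7:89954654-89980983, minus strand), the subunit that binds the finished mark, was at 52.7, 52.2 and 48.8 CPM in ENR, 54.2 and 58.0 CPM in -VE and 41.4, 40.4 and 37.5 CPM in Hyper libraries. The Hyper values did not overlap those of either other group, and Eed fell by 0.37 on the log2 scale against ENR (SE 0.066, adjusted p = 0.00160). Suz12 (chr11:79993106-80034123, plus strand), which scaffolds the complex, was at 89.3, 84.2 and 78.4 CPM in ENR, 80.7 and 90.9 CPM in -VE and 71.6, 63.6 and 64.6 CPM in Hyper libraries. Here too the 3 Hyper libraries were lowest, and the log2 fold change against ENR was -0.34 (SE 0.078, adjusted p = 0.00609).

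Kdm6b (chr11:69398508-69413675, minus strand), the demethylase known to be induced by inflammatory signals, was at 33.8, 31.3 and 34.3 CPM in ENR, 35.6 and 34.6 CPM in -VE and 40.8, 39.2 and 44.2 CPM in Hyper stem class cells. Every Hyper library was above every other library, and Kdm6b rose by 0.32 on the log2 scale against ENR (SE 0.071, adjusted p = 0.00446). The summed level of 18 genes that respond to cell dissociation was 1427, 1520 and 1249 CPM in ENR, 1501 and 1072 CPM in -VE and 2224, 1518 and 1871 CPM in Hyper stem class cells. Of the 18, 7 rose and 0 fell against ENR, where 26.1% of all genes rose and 23.4% fell. The part of these 18 genes in the Kdm6b difference was not tested. Kdm6a, the X-linked demethylase, had 18.7 to 21.1 CPM in ENR and 17.5 to 20.5 CPM in Hyper libraries, with a log2 difference of -0.078 and a 95% interval of -0.28 to 0.12.

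The remaining 5 genes did not pass the test between Hyper- and ENR-organoids in this class. Rbbp7, which encodes a histone-binding protein shared with other chromatin complexes, had 214, 221 and 180 CPM in ENR, 252 and 259 CPM in -VE and 184, 191 and 135 CPM in Hyper libraries. In both groups the series C library from primary crypts was lowest for Rbbp7. Within each of the 3 series the Hyper library was below its ENR partner, and when series was added to the model the log2 fold change of -0.28 passed (adjusted p = 0.00262). Jarid2 had 25.8 to 28.8 CPM in ENR and 27.04 to 29.4 CPM in Hyper libraries. Mtf2 had 31.9 to 37.8 and 30.9 to 31.9 CPM, and Ezh1 6.25 to 9.80 and 6.54 to 7.52 CPM. Phf19 was the scarcest, with 13 to 53 UMIs in the ENR and 83 to 150 UMIs in the Hyper libraries, or 1.81 to 4.38 and 2.22 to 2.74 CPM.

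**Figure D1:**
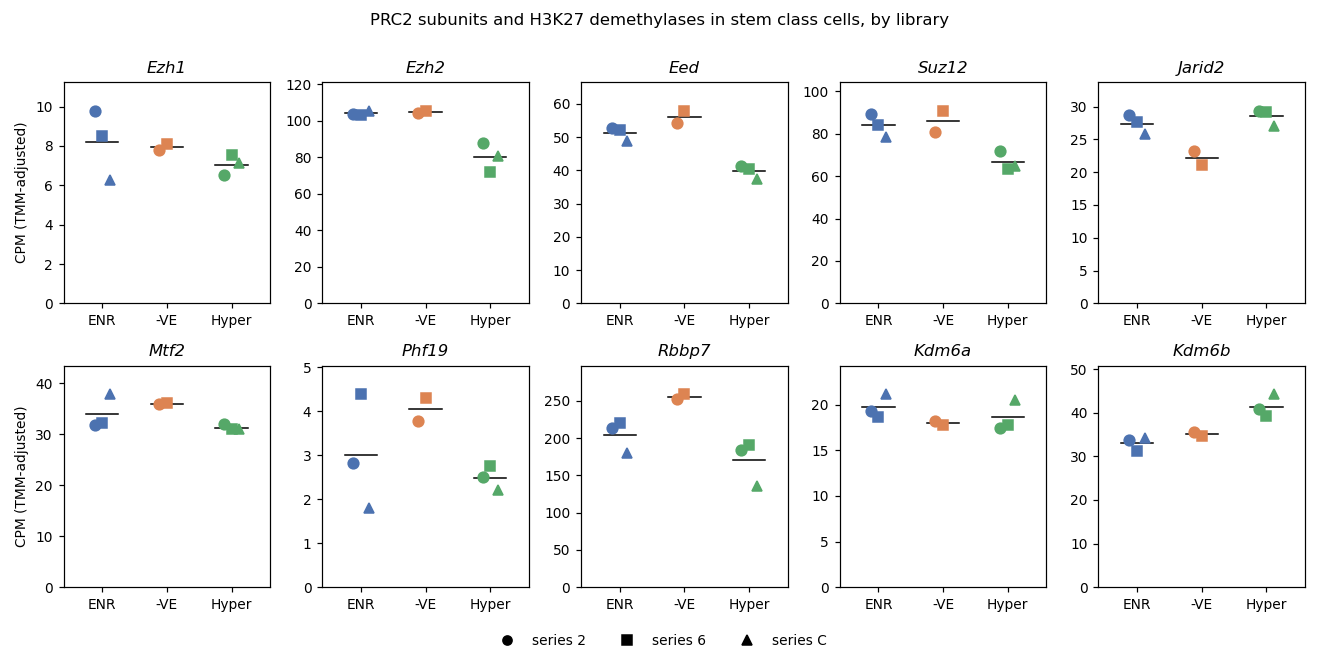
Level of each of the 10 genes in stem class cells. The y axis gives TMM-adjusted CPM from 0, each point is 1 library, its shape the culture series, and the bar the group mean. For Ezh2, Eed and Suz12 the 3 Hyper points lie below the other 5, and for Kdm6b they lie above them.

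Against -VE-organoids, whose medium lacked only VPA and EPZ6438, the same 4 genes moved in the same direction in the stem class, and Rbbp7 and Jarid2 joined them. This comparison shares its Hyper libraries with the one before and is not independent of it. In the same cells 23 of the 25 cycle genes fell and 0 rose (list median -0.54 on the log2 scale), where 20.3% of all genes fell and 23.7% rose, and their part in the result was not tested beyond the split by cycle share given further on. The 6 called genes compare with 44.0% of all genes tested, and 9 of 10 did not overlap, where 66.5% of all genes did not. The fall was 0.50 on the log2 scale for Eed (adjusted p = 0.000573), 0.38 for Ezh2 (adjusted p = 0.00466), 0.37 for Suz12 (adjusted p = 0.00694) and 0.59 for Rbbp7 (adjusted p = 0.00763). Rbbp7 was lowest in series C, which had no -VE library, so the size of its fall also holds a difference between series. Kdm6b rose by 0.24 (adjusted p = 0.0287). Jarid2, which encodes an accessory subunit that defines one form of PRC2, had 23.2 and 21.1 CPM in -VE against 29.4, 29.2 and 27.04 CPM in Hyper libraries and rose by 0.37 (adjusted p = 0.00535). The -VE libraries were the low ones for Jarid2, since the ENR libraries stood at 28.8, 27.6 and 25.8 CPM. Without -VE replicate 2 the count was 3 of 10, and over the 8 ways of leaving out 1 library it ran from 3 to 8. With series as a block Mtf2 was also called and lower.

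Between -VE- and ENR-organoids 0 of the 10 genes were called by edgeR, and 0 by DESeq2, in the stem class, where 1.54% of all genes were, and 2, Jarid2 and Rbbp7, had an unadjusted p under 0.05 (17.7% of all genes). Ezh2 differed by 0.0070 on the log2 scale with an interval of -0.18 to 0.19. Jarid2 stood at -0.31 with an adjusted p of 0.107, and with series as a block at -0.35 with an adjusted p of 0.0398. Rbbp7 stood at 0.32 (adjusted p = 0.278), where ENR included the low series C library and -VE had none of that series. Eed, Jarid2, Rbbp7, Kdm6a and Kdm6b did not overlap between these groups, 5 of 10 against 37.0% of all genes, with only 2 -VE libraries to overlap.

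Over all kept cells Ezh1, Eed, Kdm6a and Ezh2 fell in Hyper- against ENR-organoids and Phf19 rose. Hyper- against ENR-organoids gave 5 called genes of 10, where 56.8% of 16037 genes were called, and 4 that did not overlap, where 64.4% did not. None was both called and at least 2-fold apart, where 22.9% of all genes were. Ezh1 fell by 0.46 on the log2 scale (10.3, 9.68 and 8.41 CPM in ENR against 6.50, 7.40 and 6.74 CPM in Hyper libraries, adjusted p = 0.00439). Eed fell by 0.23 (adjusted p = 0.00740), Kdm6a by 0.27 (adjusted p = 0.0407) and Ezh2 by 0.14 (116, 114 and 112 against 110, 98.9 and 102 CPM, adjusted p = 0.0464). Phf19, which encodes a Polycomb-like subunit, had 1.34, 1.66 and 0.979 CPM in ENR, 2.02 and 2.12 CPM in -VE and 2.42, 2.47 and 1.97 CPM in Hyper libraries, from 82 to 373 UMIs. The ENR libraries were the low ones, the other groups overlapped, and Phf19 rose by 0.79 against ENR (adjusted p = 0.0114). Against -VE it stood at 0.15 (adjusted p = 0.619). Kdm6a overlapped between the groups, with its highest Hyper value of 22.3 CPM in series C. Suz12 at -0.20 (adjusted p = 0.0505) and Rbbp7 at -0.14 (adjusted p = 0.400) passed when series was a block (adjusted p = 0.0162 and 0.0158), and Suz12 also with DESeq2 (adjusted p = 0.0467) and in cells with at least 1500 genes (adjusted p = 0.0493), and Jarid2, Mtf2 and Kdm6b stood at -0.0042, -0.046 and 0.061 on the log2 scale. Without ENR replicate 1, -VE replicate 1, -VE replicate 2 or Hyper replicate 2 the count was 3 of 10.

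The classes did not hold the same share of the cells in each medium, since the stem class made up 9.75 to 14.7% of ENR, 24.3 and 28.2% of -VE and 40.04 to 44.1% of Hyper cells. Values over all cells therefore mix classes in different proportions. The count for Hyper against ENR over all cells changed with the settings. With factors from the RLE method 3 genes were called (Ezh1, Eed and Phf19), and with a filter of 10 CPM, which left Ezh1 and Phf19 untested, 1 gene was (Kdm6b). That filter moved the log2 differences of all genes upward by 0.12 at the median. Against -VE-organoids 4 of the 10 genes were called over all cells (47.6% of all genes) and 8 did not overlap (67.0% of all genes). Rbbp7 fell by 0.46 (adjusted p = 0.0315), Eed by 0.37 (adjusted p = 0.00202) and Suz12 by 0.26 (adjusted p = 0.0351), and Jarid2 rose by 0.21 (adjusted p = 0.0125). Here too series C is present in Hyper- but not in -VE-organoids. Without -VE replicate 2 only 1 was called, without -VE replicate 1 or Hyper replicate 3 there were 2. Jarid2 was also the only gene called between -VE- and ENR-organoids (7.88% of all genes, with 5 of 10 not overlapping against 45.7%), with 33.0, 31.7 and 31.4 CPM in ENR against 28.2 and 27.2 CPM in -VE libraries (log2 fold change -0.21, adjusted p = 0.0477), a call that held only without Hyper replicate 3 among the 8 ways of leaving out 1 library. When series was added as a block Rbbp7 was called there too, at 0.20 (adjusted p = 0.0384), and Ezh2 joined the 4 genes called against -VE, at -0.14 (adjusted p = 0.0447).

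In the TA class, where cells divide fastest, Ezh1 and Eed fell and Phf19 rose. The study reports that TA cells, too, lay apart between Hyper- and ENR-organoids, so medium and cluster cannot be told apart here either. Of the 10 genes 5 were called against ENR-organoids (55.8% of all genes) and 6 did not overlap (62.8% of all genes). Phf19 was at 1.13, 1.53 and 0.829 CPM in ENR, 1.48 and 1.58 CPM in -VE and 2.57, 2.48 and 2.13 CPM in Hyper libraries, from 26 to 84, 99 and 157, and 99 to 214 UMIs. The 3 Hyper libraries were above all others, and the log2 fold change of 1.03 (SE 0.224, adjusted p = 0.00442) was the only one of the 10 to reach 2-fold, where 20.9% of all genes were called at that size. Ezh1 had 9.46, 9.79 and 8.80 CPM in ENR against 6.60, 7.19 and 6.53 CPM in Hyper libraries and fell by 0.47 (adjusted p = 0.00198). Eed fell by 0.24 (adjusted p = 0.00405), Jarid2 by 0.16 (adjusted p = 0.0419) and Ezh2 by 0.14 (140, 142 and 138 CPM against 129, 123 and 129 CPM, adjusted p = 0.0312). Rbbp7 had 187 to 239 CPM in ENR and 163 to 211 CPM in Hyper libraries, Suz12 99.3 to 116 and 95.7 to 106 CPM and Mtf2 38.7 to 47.4 and 41.4 to 43.1 CPM, and none of these passed. The demethylase gene Kdm6b had 33.6, 31.7 and 34.7 CPM in ENR, 34.8 and 34.8 CPM in -VE and 35.9, 35.3 and 37.9 CPM in Hyper libraries, without overlap, and stood at 0.13 (adjusted p = 0.0742). Kdm6a had 22.3, 21.5 and 24.3 CPM in ENR against 17.7, 17.1 and 22.9 CPM in Hyper libraries, which overlapped, and stood at -0.24 (adjusted p = 0.0974). When series was added as a block 8 of 10 were called, and with a filter of 10 CPM, which left Ezh1 and Phf19 untested, 2 were (Eed and Kdm6b). The share of all genes called was not computed for either setting. Without ENR replicate 1, -VE replicate 2, Hyper replicate 1 or Hyper replicate 2 the count was 3. Against -VE-organoids 3 were called (47.3% of all genes, with 7 not overlapping against 66.6%), Eed at -0.31, Ezh1 at -0.28 and Rbbp7 at -0.41, with Phf19 as a 4th when series was a block. There the count was 1 without -VE replicate 1, -VE replicate 2 or Hyper replicate 3 and 5 without ENR replicate 3. Between -VE- and ENR-organoids Jarid2 alone was called, at -0.32 (adjusted p = 0.0399, 3.14% of all genes, with 6 not overlapping against 40.4%), and it held only without Hyper replicate 1 or Hyper replicate 3 among the 8 ways of leaving out 1 library.

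Whether the Hyper against ENR difference itself differed between the stem and the TA class was tested in one model with each library as a factor. In both classes the medium and the cluster cannot be told apart. Of the 10 genes 5 differed, where 15.1% of 14704 genes did. The stem class had the more negative difference for Ezh2 (by 0.22 on the log2 scale, adjusted p = 0.00526), Suz12 (by 0.18, adjusted p = 0.0133) and Phf19 (by 1.32, adjusted p = 0.000130). It had the more positive one for Kdm6b (by 0.21, adjusted p = 0.0151) and Jarid2 (by 0.22, adjusted p = 0.0393). For Eed, which fell in both classes, it was -0.10 (adjusted p = 0.238), and for Ezh1, Kdm6a, Mtf2 and Rbbp7 it lay between -0.098 and 0.23 and did not pass. Without ENR replicate 1, ENR replicate 2, -VE replicate 2 or Hyper replicate 2 the count was 3.

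**Figure D2:**
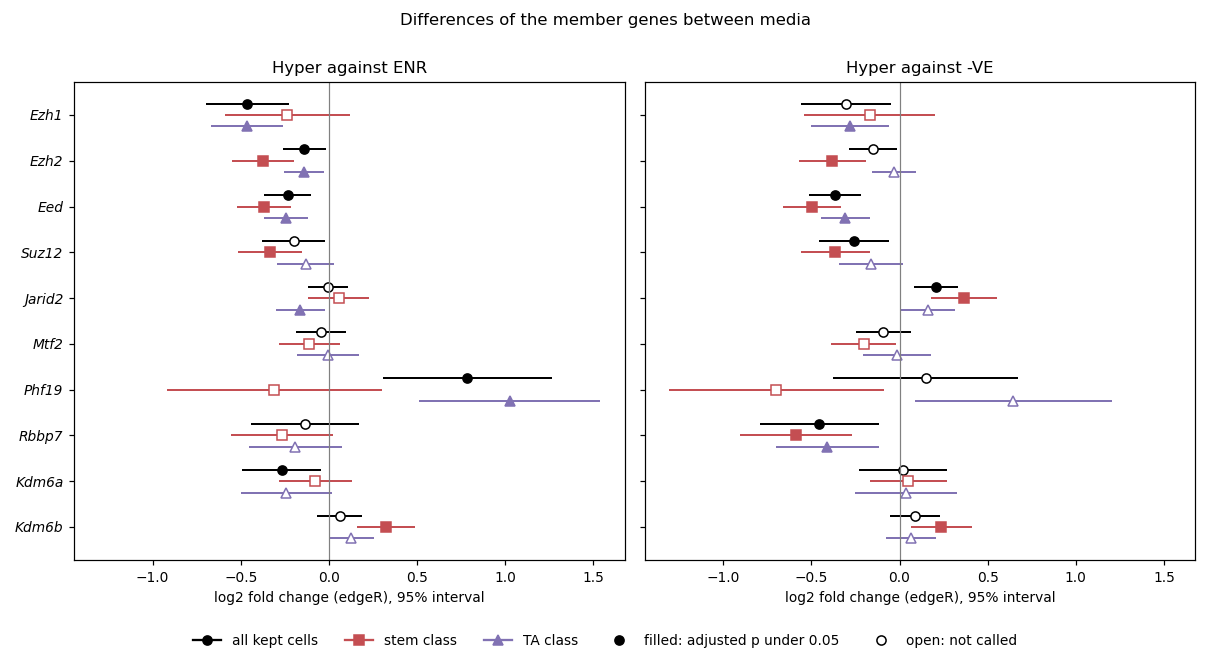
Log2 fold change of the 10 genes between media, Hyper against ENR on the left and Hyper against -VE on the right. Circles are sums over all kept cells, squares the stem class and triangles the TA class, bars are 95% intervals from edgeR, and filled marks have an adjusted p under 0.05. The squares of Ezh2, Eed and Suz12 lie at -0.34 or below on both sides, and the circles and triangles of Ezh2 lie closer to 0.

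In the differentiated classes fewer genes could be told apart. In goblet cells, which secrete mucus, edgeR called 0 of the 9 genes tested between Hyper- and ENR-organoids (31.0% of all genes), with 0 at an unadjusted p under 0.05. The share of all genes under that unadjusted threshold was 41.4%. Against -VE-organoids it called Jarid2 alone, with 44.7, 42.1 and 41.4 CPM in Hyper against 33.5 and 29.5 CPM in -VE libraries (log2 fold change 0.45, adjusted p = 0.0125), where 20.4% of all genes were called. Eed, Jarid2 and Rbbp7 were the 3 at an unadjusted p under 0.05 there, against 33.4% of all genes. The count was 0 without -VE replicate 2 and 2 without ENR replicate 2 or ENR replicate 3. Between -VE- and ENR-organoids 0 were called in goblet cells (2.23% of all genes, with 3, Jarid2, Rbbp7 and Kdm6a, at an unadjusted p under 0.05 against 18.1%), and 1 was without ENR replicate 2. With series as a block the goblet counts were 2 for Hyper against -VE and 1 for -VE against ENR. In enteroendocrine cells 0 were called in any comparison (14.0% of all genes for Hyper against ENR, 5.10% for Hyper against -VE and 0.199% for -VE against ENR, with 0, 2 and 3 at an unadjusted p under 0.05 against 28.1%, 19.8% and 12.8% of all genes), from 61 to 107 cells a library. The 2 in the Hyper against -VE comparison were Ezh2 and Rbbp7, and the 3 in the -VE against ENR comparison were Jarid2, Rbbp7 and Kdm6a, as in goblet cells. In enteroendocrine cells Jarid2 had 118, 132 and 98.3 CPM in ENR, 89.7 and 72.6 CPM in -VE and 87.3, 108 and 126 CPM in Hyper libraries. Kdm6a had 58.4, 53.2 and 56.6 CPM in ENR, 38.8 and 33.0 CPM in -VE and 38.4, 45.3 and 55.3 CPM in Hyper libraries. For both genes the -VE libraries lay below all ENR libraries and the Hyper libraries reached across, with log2 differences of -0.53 (adjusted p = 0.311) and -0.65 (adjusted p = 0.232) between -VE and ENR. Phf19 had too few UMIs to be tested in either class.

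Within the stem class most PRC2 genes were higher in cells with more cycle transcripts, while Kdm6b, Ezh1 and Jarid2 were lower. Stem class cells were divided where 25 cycle genes together made up 1525 CPM of a cell's UMIs, a list that holds none of the 10 genes, and the 2 sums of each library were compared. In the cells with the higher share Phf19 rose by 1.69 on the log2 scale (adjusted p = 9.6e-11), Ezh2 by 0.75 (adjusted p = 4.7e-15), Suz12 by 0.49 (adjusted p = 1.9e-10), Mtf2 by 0.35, Eed by 0.30 and Rbbp7 by 0.19. Each of these 6 was higher in 8 of 8 libraries. Kdm6b fell by 0.41 (adjusted p = 1.1e-08) and Ezh1 by 0.37 (adjusted p = 0.000290), both in 8 of 8 libraries, and Jarid2 fell by 0.30 in 7 of 8. Kdm6a, at -0.13, did not pass (adjusted p = 0.0549). The 9 called genes compare with 48.1% of 13000 genes called, 24.5% being higher and 23.6% lower.

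Ezh2 had 55.6 to 86.8 CPM in cells with the lower share and 94.1 to 125 CPM in cells with the higher share, so that the ranges over 8 libraries did not overlap. Kdm6b had 38.7 to 49.0 CPM and 26.3 to 36.5 CPM, which did not overlap either. Ezh1 had 7.07 to 11.5 CPM and 5.29 to 8.56 CPM, with an overlap between libraries but the same order inside each.

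**Figure D3:**
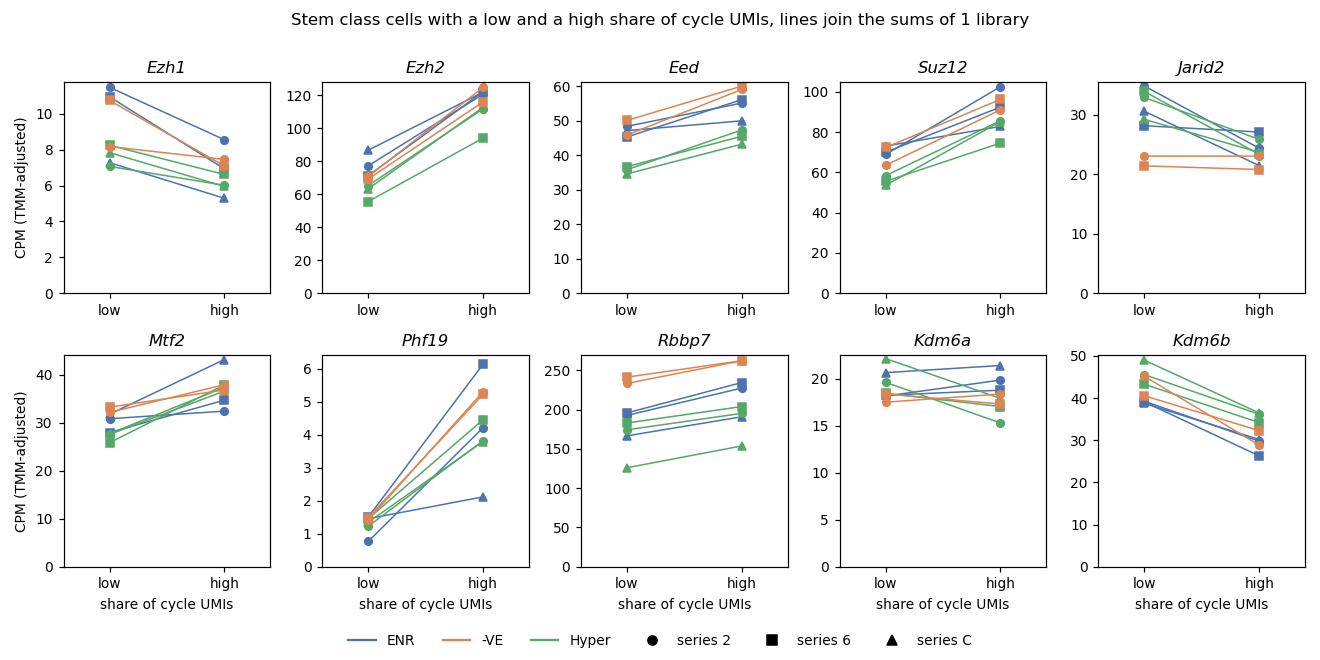
CPM of the 10 genes in stem class cells with a low and a high share of cycle UMIs. Each line joins the 2 sums of 1 library, the colour gives the medium and the shape the culture series. The lines of Ezh2, Suz12, Eed, Mtf2, Rbbp7 and Phf19 rise in all 8 libraries, and those of Kdm6b and Ezh1 fall in all 8.

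The share of cycle UMIs itself differed between media. Stem class cells above the threshold made up 52.8, 56.2 and 46.7% in ENR, 55.6 and 69.6% in -VE and 44.5, 36.9 and 31.2% in Hyper libraries, and the summed cycle genes stood at 1743 to 1893, 1866 and 2078, and 1216 to 1411 CPM. In the TA class the 3 media were closer, at 2928 to 3132, 3012 and 3024, and 2900 to 2945 CPM. Among stem class cells with a low share, Hyper- against ENR-organoids still gave 4 called genes (42.1% of all genes): Ezh2 at -0.31 (adjusted p = 0.0196), Eed at -0.36 (adjusted p = 0.00363), Suz12 at -0.30 (adjusted p = 0.00975) and Kdm6b at 0.27 (adjusted p = 0.0249). Without ENR replicate 1 there were 2. Among cells with a high share 2 were called (43.1% of all genes), Eed at -0.24 (adjusted p = 0.0190) and Kdm6b at 0.32 (adjusted p = 0.0122), while Ezh2 stood at -0.19 (adjusted p = 0.0773) and Suz12 at -0.18 (adjusted p = 0.129). When series was added as a block 5 were called there, Ezh2 among them, and leaving out 1 library gave 0 to 4, with 0 without ENR replicate 2, 1 without ENR replicate 1 or Hyper replicate 2 and 4 without ENR replicate 3. The share of all genes called was not computed for these alternatives. The cells of a library sit on both sides of 1 threshold, and cycle genes still differed within each side. Of the 25 cycle genes 10 fell and 1 rose among cells with a low share (list median -0.24 on the log2 scale), where 18.4% of all genes fell and 23.7% rose. Among cells with a high share 12 fell and 7 rose (list median -0.21), where 18.8% of all genes fell and 24.2% rose. Against -VE-organoids 5 of the 10 genes were called among cells with a low share (35.8% of all genes), with Eed, Suz12, Rbbp7 and Mtf2 lower and Jarid2 higher, and 14 of the 25 cycle genes fell and 0 rose, where 15.6% of all genes fell and 20.3% rose. There the count was 1 without -VE replicate 2 and 3 without -VE replicate 1, Hyper replicate 2 or Hyper replicate 3. Among cells with a high share Eed and Rbbp7 were called and lower (36.8% of all genes), and 11 cycle genes fell and 2 rose, where 15.6% of all genes fell and 21.2% rose. Ezh2 stood at -0.17 (adjusted p = 0.203) and -0.18 (adjusted p = 0.135) against -VE in the low- and high-share cells, and Kdm6b at 0.12 (adjusted p = 0.330) and 0.22 (adjusted p = 0.0684).

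Across the annotated classes Ezh2 and the core subunits had their highest medians in TA cells and the demethylases in enteroendocrine cells. Because the classes were built from the same cells, these levels are a description with no test. The median CPM of Ezh2 over the libraries was 132 in TA cells (123 to 139), 110 in enterocyte progenitors, 99.9 in stem class cells (75.8 to 103), 78.2 in enteroendocrine and 77.6 in goblet cells, and 30.2 and 29.2 in Paneth cells and enterocytes. Enterocyte progenitors and Paneth cells had at least 20 cells in 5 libraries, all of ENR or -VE, whereas the stem and TA medians are over all 8. The class annotated as revival stem cells reached 20 cells in 1 Hyper library alone, where Ezh2 was at 85.4 CPM in 26 cells. The TA range touched none of the others, whereas those of enteroendocrine and goblet cells overlapped, as did those of Paneth cells and enterocytes (24.2 to 37.0). Suz12, Eed and Rbbp7 were also highest in TA cells, at medians of 108, 52.7 and 225 CPM, and in enterocytes they stood at 48.1, 26.3 and 78.4 CPM. Their TA ranges overlapped those of enterocyte progenitors. The Suz12 median was 79.5 CPM in enteroendocrine, 78.8 in goblet and 76.9 in stem class cells, and these ranges overlapped. Within a library Ezh2 in TA cells was 1.19 to 1.71 times its stem class level, and in enterocytes 0.244 to 0.444 times.

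Enteroendocrine cells, which secrete hormones, had the highest median of Kdm6b, Jarid2, Kdm6a, Mtf2 and Ezh1. Kdm6b was at 111 to 169 CPM there, with a median of 142, and the next class, enterocytes, at 48.4 to 60.2 CPM. Jarid2 was at 69.8 to 140 CPM, with a median of 102, and goblet cells, which came next, at 29.8 to 47.2 CPM. Neither pair of ranges overlapped. Kdm6a was at 31.7 to 62.9 CPM against 23.5 to 31.8 CPM in goblet cells, and these ranges overlapped at their ends. Within a library the enteroendocrine level was 4.13 times the stem class level for Kdm6b, 3.87 times for Jarid2 and 2.49 times for Kdm6a at the median, each above it in 8 of 8 libraries. For Mtf2 (35.7 to 58.5 CPM) and Ezh1 (5.65 to 15.5 CPM) the enteroendocrine range overlapped that of the next class. The cycle genes summed to 176 to 1040 CPM in these cells and the dissociation genes to 2354 to 5022 CPM, against 1072 to 2224 CPM in the stem class, and their part in the levels was not tested.

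**Figure D4:**
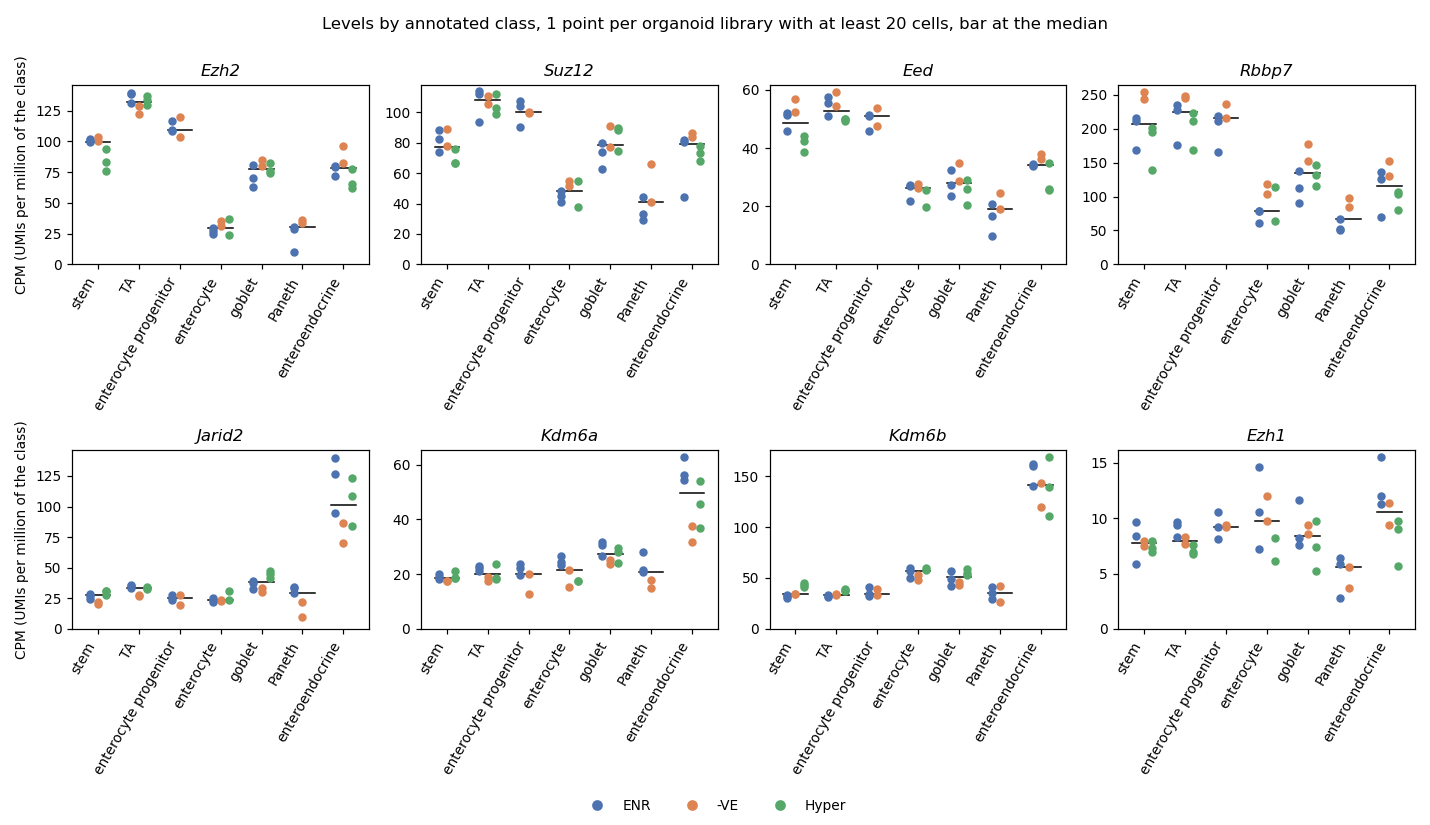
Level of 8 of the 10 genes by annotated class, from the organoid libraries with at least 20 cells of the class. The y axis gives CPM from 0, each point is 1 library coloured by medium, and the bar is the median over libraries. Ezh2, Suz12, Eed and Rbbp7 have their highest median in TA cells, and the points of Jarid2 and Kdm6b in enteroendocrine cells lie above those of every other class.

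The genes of the 2 catalytic subunits had unequal UMI counts in every class, and the balance tilted furthest toward Ezh1 in enterocytes. These are UMI counts of 3′ tags, not divided by transcript length. How evenly the 2 transcripts were captured was not measured, so a share of UMIs need not be a share of transcripts. Of the UMIs of Ezh1 and Ezh2 together, Ezh2 gave a median of 94.2% in TA cells, 92.6% in the stem class, 92.2% in enterocyte progenitors, 90.3% in goblet, 87.5% in enteroendocrine, 85.7% in Paneth cells and 74.7% in enterocytes, where the libraries ran from 63 to 85.7%. Over all cells the share was 91.8, 92.2 and 93.0% in ENR, 93.4 and 92.8% in -VE and 94.4, 93.0 and 93.8% in Hyper libraries. The Hyper mean was 1.41 percentage points above the ENR mean, with p = 0.1 in an exact two-sided permutation test of 3 libraries against 3, the smallest value this design allows. Within the stem class the difference was -0.87 points (exact permutation p = 0.5). Within the TA class the share was 93.7, 93.5 and 94.0% in ENR, 94.4 and 93.6% in -VE and 95.1, 94.5 and 95.2% in Hyper libraries, where ENR and Hyper did not overlap and the difference was 1.19 points (exact permutation p = 0.1).

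Over 45 sums of 1 class in 1 library with at least 50 cells, the log2 levels of the 10 genes were alike within the core subunits and within the demethylases with Jarid2. These correlations are descriptions over sums that share libraries and depth. The sums also mix classes, so the correlations hold differences between classes, such as the high enteroendocrine levels of Kdm6b, Jarid2 and Kdm6a. Ezh2 correlated with Suz12 at r = 0.878, with Mtf2 at 0.833, with Eed at 0.825 and with Rbbp7 at 0.804. Kdm6a and Kdm6b correlated at 0.868, and Jarid2 with Kdm6a at 0.902 and with Kdm6b at 0.891. Ezh1 correlated with Ezh2 at 0.045. Among 8084 genes the patterns most like that of Ezh2 were those of Ddx39b (r = 0.975), Ssb, Magoh, Smc1a and Tsn (0.966 for the last). Those most like Kdm6b were Dst (0.964), Rph3al, Camk2b, Slc36a1 and Atp6v0b (0.960 for the last), and those most like Ezh1 were Plekha5 (0.859), Cab39, Nfe2l1, Dazap2 and Stxbp3 (0.832 for the last). These genes were picked for the highest correlations among the 8084, so their lying above others in that set follows from the choice. None of the 10 genes was among those picked. How many of all genes correlated more closely with Ezh2, Kdm6b or Ezh1 than any other of the 10 did was not counted.

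Other genes that write, read or oppose the mark were followed as lists in the stem class, and several of their members rose or fell. The comparison is Hyper against ENR, with a median log2 fold change of 0.00023 over all genes tested, of which 26.1% rose and 23.4% fell. The median over the 10 genes was -0.25. Of 6 other PRC2 genes tested, 1 rose and 3 fell. Epop, an accessory subunit that ties PRC2 to elongin, rose by 0.96, and Lcorl, Rbbp4 and Aebp2 fell by 0.42, 0.39 and 0.20. Among 22 subunits of PRC1, the complex that ubiquitinates histone H2A, 7 rose and 2 fell, with a list median of 0.18. Bmi1 rose by 1.04 (adjusted p = 5.5e-05) and Phc1 by 0.76, and L3mbtl2 and Pcgf6 fell by 0.33 each. Of the 4 genes of the H2A deubiquitinase, Asxl1 and Asxl2 fell by 0.45 and 0.28. Asxl3 was called higher, with 5 to 17 UMIs in each ENR library and 178 to 455 in each Hyper library over all cells. With so few UMIs in the ENR libraries it could rise but hardly fall, so nothing is read from this call.

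The COMPASS genes, whose products methylate H3K4, fell nearly throughout: 11 of 12 tested fell and 0 rose, with a list median of -0.43. Setd1b fell by 0.91 (adjusted p = 0.00321), Kmt2d by 0.57 (adjusted p = 0.00111) and Kmt2a by 0.47 (adjusted p = 0.000423). With RLE factors, DESeq2 or a filter of 10 CPM, 10 fell. Over all kept cells 10 of 13 fell, where 27.3% of all genes fell, and with the filter of 10 CPM 6 of 12. Both acetyltransferase genes that place the opposing acetyl mark on H3K27 also fell, Crebbp by 0.67 (adjusted p = 0.000648) and Ep300 by 0.35 (adjusted p = 0.00280). Over all cells Crebbp was at 66.5, 63.1 and 56.0 CPM in ENR, 53.8 and 58.9 CPM in -VE and 42.2, 42.9 and 37.7 CPM in Hyper libraries, without overlap between Hyper and the rest.

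Of 20 genes known from textbooks as Polycomb targets, 14 were tested in the stem class, where 8 rose and 0 fell, and 15 over all cells, where 7 rose and 2 fell (Gata4 and Cdkn2b). Over all cells 29.5% of all genes rose and 27.3% fell. In enteroendocrine cells 2 of 7 rose and 3 fell, where 8.70% of all genes rose and 5.28% fell. A gene that passed the count filter only through the Hyper libraries could rise but not fall, so that nothing is read from these counts. Fitted fold changes against near-empty ENR libraries are not given. Over all cells Cdkn2a, which encodes cell cycle inhibitors, had 24, 24 and 35 UMIs in ENR, 23 and 22 in -VE and 1923, 809 and 2542 in Hyper libraries. Wnt5a, a secreted Wnt ligand, had 0, 6 and 7 UMIs in ENR, 7 and 9 in -VE and 588, 1001 and 514 in Hyper libraries. Both are examples with higher counts in Hyper libraries, and the counts of Gata4 and Cdkn2b, which fell, are not given. Of the 25 cycle genes 2 rose (Cdc20 and Tpx2) and 14 fell in the stem class, with Top2a at -1.16, Mcm5 at -0.83 and Mcm4 at -0.70.

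The colonic crypts had 1 library per condition, so their values carry counting error only and no test. After DSS the values of Ezh2, Suz12, Eed, Rbbp7, Kdm6a, Jarid2 and Phf19 were lower, and those of Ezh1, Mtf2 and Kdm6b higher. Ezh2 went from 26.3 CPM (95% Poisson interval 24.1 to 28.7) to 18.6 (17.2 to 20.2), a log2 ratio of -0.48 with a pseudocount of 1 CPM. Suz12 went from 32.0 to 23.9 CPM, Eed from 34.3 to 26.8, Rbbp7 from 107 to 84.1, Kdm6a from 21.4 to 15.5 and Jarid2 from 32.3 to 27.8. The Poisson intervals of these genes did not overlap between the libraries. Phf19 rested on 29 and 12 UMIs, at 1.46 and 0.370 CPM. Ezh1 went from 10.8 to 13.7 CPM, Mtf2 from 17.0 to 19.4 and Kdm6b from 58.8 to 64.5. With this pseudocount none of the 10 reached 2-fold, where 5.08% of 12440 genes did, and the median log2 ratio of all genes was 0.03.

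The cell make-up of the colonic libraries also differed, with 10 leukocyte genes summing to 270 CPM in the normal and 2706 CPM in the DSS library. Leaving out the 6 of 25 clusters in which over 50% of cells held a Ptprc UMI, and other cells with one, gave a log2 ratio of -0.46 for Ezh2 and of 0.14 for Kdm6b. With all deposited barcodes in place of the kept cells it was -0.22 for Ezh2 and 0.18 for Kdm6b. It was -0.12 for Eed, -0.12 for Rbbp7, -0.094 for Jarid2 and 0.38 for Mtf2. There the Poisson intervals of Eed, Jarid2 and Ezh1 overlapped between the libraries, while those of Mtf2 and Kdm6b no longer did. Many clusters came mostly from 1 library. Over the 23 clusters of at least 20 cells, Ezh2 was highest, at 82.4 CPM, in the cluster with the highest cycle sum of 2780 CPM, where Rbbp7 was highest too (216 CPM). Kdm6b was at 161 to 313 CPM in those 6 clusters with a Ptprc UMI in over 50% of cells. Among the other 17, of which 1 (21 cells, with Kdm6b at 0) had leukocyte genes at 198517 CPM, it was highest, at 222 CPM, in the cluster with the highest sum of the 4 enteroendocrine markers, where Kdm6a and Jarid2 were also highest of the 17 (45.4 and 43.1 CPM). That cluster held only 16 normal and 43 DSS cells, with 155580 and 285226 UMIs of all genes. The counting error of these ranks was not computed, and Jarid2 reached 39.0 CPM in another of the 17.

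**Figure D5:**
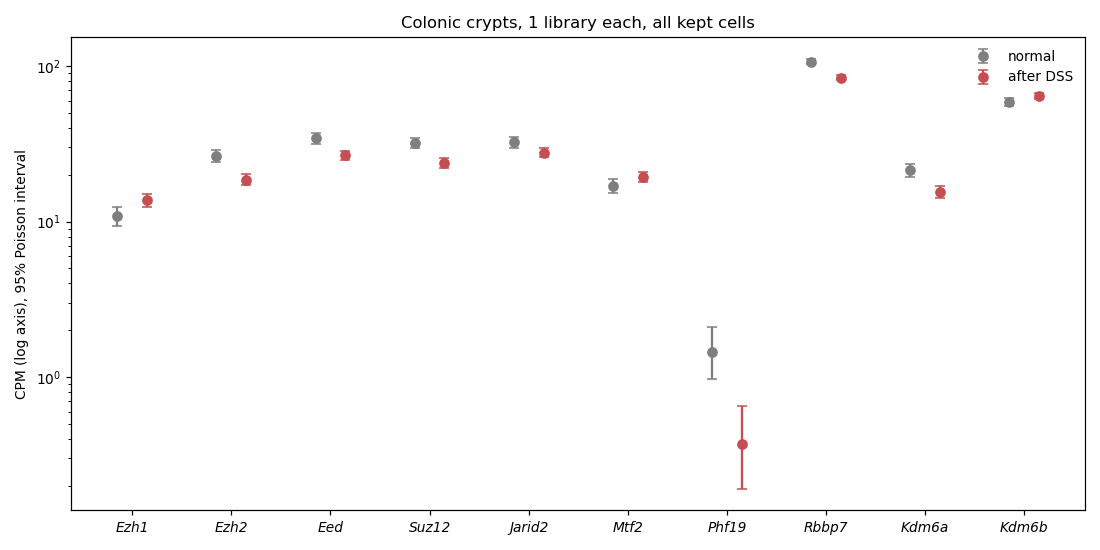
CPM of the 10 genes in the normal and the DSS library of colonic crypts over all kept cells. The y axis is logarithmic, points are single libraries and bars are 95% Poisson intervals of the UMI count. The intervals of Mtf2 and Kdm6b overlap between the 2 libraries, and those of the other 8 genes do not.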

How the data were processed

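Single-cell 10x Genomics 3' libraries were measured in 8 organoid cultures and 2 samples of colonic crypts. The deposited UMI counts per gene and cell were made by the authors, whose processing notes name Cell Ranger 3.0.0, Seurat 3.1.4 and the build mm10. The deposited annotation gave the kept cells and their classes. Kept cells had at least 501 genes and at most 20% mitochondrial UMIs, as found in the files. The study's methods state other limits, a minimum of 1500 genes and a higher mitochondrial share, and 30 to 132 kept cells of each organoid library had fewer genes than that. The matrix headers name software version 3.1.0.

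Counts were summed per gene and library, over all kept cells or within a class with at least 20 cells in a library. Sums of the 8 organoid libraries entered 1 fit of edgeR 4.0.16 (R 4.3.3; TMM factors, filterByExpr, quasi-likelihood test) with the medium as the term, Benjamini-Hochberg adjustment over all genes tested and a threshold of 0.05. The 3 contrasts share libraries. CPM in comparisons of media are TMM-adjusted, and CPM between classes and in the colonic libraries are not. DESeq2 1.42.0 was an alternative. Python 3.11.15, numpy 2.4.6, scipy 1.17.1 and pandas 2.3.3 did the rest. The scripts were tested on simulated data.

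The 10 genes, the lists and the tests were chosen with earlier results of these data known. Every one of the 10 genes is named, and from each other list at most 3 called genes a direction, those with the largest log2 fold change. Not every gene that this rule allows is reported here. Genes most like Ezh2, Ezh1 and Kdm6b are the 5 with the highest Pearson correlation of log2 CPM (prior 1 CPM) among genes with a mean of at least 10 CPM. Same-series ENR and Hyper libraries deviated together over 16037 genes (correlations 0.192, 0.170 and 0.436). The culture series, read from the prefix of the library codes, was therefore used as a block in an alternative. Intervals of the colonic values are exact Poisson intervals and cover counting error only.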

Additional observations from a re-analysis of the deposited data

Results flagged for a closer look

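For 5 of the 10 genes the Hyper against ENR difference itself differed between the stem and the TA class by the interaction term of the edgeR fit. Medium and cluster cannot be told apart within either class. The stem class difference minus the TA class difference was -0.22 on the log2 scale for Ezh2, -0.18 for Suz12 and -1.32 for Phf19, and 0.22 for Jarid2 and 0.21 for Kdm6b. Phf19 had log2 fold changes of -0.31 (adjusted p = 0.369) in the stem and 1.03 (adjusted p = 0.00442) in the TA class, from 13 to 150 and 26 to 214 UMIs a library of these media. Jarid2 stood at 0.056 (adjusted p = 0.570) in the stem class and fell by 0.16 in the TA class. The summed cycle genes were lower in Hyper than in ENR stem class cells (1216 to 1411 against 1743 to 1893 CPM) and closer in the TA class (2900 to 2945 against 2928 to 3132 CPM), and their part in these differences was not tested.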

How the results depend on the processing

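Among the alternatives run on the 10 single genes, 1019 values stayed the same. For the organoids this means the same direction and side of the threshold, and for a colonic ratio a value inside its main 95% interval. A further 117 values were no longer called, 24 became called and 35 changed sign, and 5 colonic ratios moved outside that interval. The stem, goblet and enteroendocrine counts for Hyper against ENR stayed at 4, 0 and 0 without any 1 library. Leaving out 1 library gave over all cells 3 to 5 called genes for Hyper against ENR, 1 to 5 for Hyper against -VE and 0 to 1 for -VE against ENR. In the stem class it gave 3 to 8 for Hyper against -VE and 0 for -VE against ENR. In the TA class it gave 3 to 5, 1 to 5 and 0 to 1. In goblet cells it gave 0 to 2 for Hyper against -VE and 0 to 1 for -VE against ENR. The count was 3 to 5 for the class difference, 9 to 10 for the cycle comparison, 0 to 4 and 2 to 4 in stem class cells with a high and a low cycle share (2 and 1 to 5 against -VE, alternatives chosen after seeing the data), and the Ezh2 share differed by 1.09 to 1.77 points.

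With the culture series as a replicate block, 2 genes were called over all cells and 1 (Jarid2) in the stem class for -VE against ENR, 8 in the TA class and 5 in stem class cells with a high cycle share for Hyper against ENR, and in goblet cells 2 for Hyper against -VE and 1 for -VE against ENR. The share of all genes called was computed for the main fits only. In stem class cells with this block Rbbp7 stood at -0.28 (adjusted p = 0.00262) for Hyper against ENR and Mtf2 at -0.23 (adjusted p = 0.0321) for Hyper against -VE. With a minimum of 2-fold 0 of the 10 genes were called, except Phf19 in the TA class for Hyper against ENR, where the count was 1. Over all cells RLE factors gave 3 and a filter of 10 CPM gave 1 for Hyper against ENR, while no filter and cells thinned to 10000 UMIs gave 0 for -VE against ENR. In the TA class the 10 CPM filter gave 2. Ezh1 and Phf19 were not tested under that filter in either. The RLE, DESeq2 and 10 CPM alternatives within the stem and TA class were chosen after seeing the data. In the colonic libraries a pseudocount of 0.1 CPM gave 1 gene past 2-fold (Phf19). The Ezh2 share difference was -0.87 points within the stem class and 1.19 points within the TA class, the second chosen after seeing the data. The cause of these changes was not tested.

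The sign changes were all of genes not called. Over all cells, Hyper against ENR, Jarid2 became 0.018, 0.00064, 8.2e-05 and 0.019 without ENR replicate 1, -VE replicate 1, -VE replicate 2 and Hyper replicate 3, and 0.013 with RLE, 0.014 with DESeq2, 0.0049 with no filter, 0.11 with 10 CPM, 0.029 with all barcodes, 0.0032 without the 5% of cells with most UMIs and 0.12 with thinned cells. Mtf2 ran from -0.085 to 0.024 (without ENR replicate 3) with 1 library left out and became 0.069 with 10 CPM and 0.00072 with all barcodes, and Kdm6b became -0.16 with all barcodes and -0.0079 with thinned cells. For Hyper against -VE, Kdm6a became -0.065 with the block and -0.023 and -0.082 without -VE replicate 1 and Hyper replicate 3 (highest 0.090), and Mtf2 became 0.031 with 10 CPM. For -VE against ENR, Kdm6b became 0.0021 with the block, Ezh2 -0.013 and -0.0075 without -VE replicate 1 and ENR replicate 3 (highest 0.022) and -0.022 with thinned cells, and Suz12 -0.0060 and -0.011 without -VE replicate 2 and ENR replicate 3 (highest 0.10). In the stem class, Hyper against -VE, Kdm6a became -0.017 with the block and -0.019 without Hyper replicate 3. For -VE against ENR, Suz12 became -0.00060 with the block and -0.033 and -0.016 without -VE replicate 2 and ENR replicate 3 (highest 0.15), Ezh1 0.082 and 0.0015 without ENR replicate 1 and -VE replicate 1 (lowest -0.21), and Ezh2 -0.00056 without ENR replicate 1 (highest 0.056). For Hyper against ENR, Phf19 became 0.083 without ENR replicate 2 (lowest -0.50). Phf19, with at most 373 UMIs in any organoid library, and enteroendocrine cells, with at most 107 cells, had the least depth.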
